A study of Mus musculus with 29 samples.

Results

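The genes of ciliary transport and of the ciliary base were followed across sorted cell populations of the mouse retina. They were taken from the RNA-seq table by name: every gene called Ift, Bbs or Cep followed by a number, every Tctn or Nphp gene, and the Rpgr genes. This rule took 65 of the 24062 genes in the table, namely 34 Cep genes, 14 Ift genes, 8 Bbs genes, 3 Nphp genes, 3 Tctn genes, and *Rpgr*, *Rpgrip1* and *Rpgrip1l*. One of the Cep names, *Cep83os*, is an antisense neighbor of *Cep83*. The rule used no measured value. Of the 65 genes, 64 passed the filter on low counts, and *Cep55*, a midbody protein of dividing cells, was too low to be tested in any population.

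A cilium is a membrane-covered projection built on a centriole that has docked as a basal body. The outer segment of a photoreceptor, where light is absorbed, is a modified cilium, whereas bipolar cells (BCs), the interneurons that receive photoreceptor input, have no outer segment. Intraflagellar transport (IFT) trains carry material into the cilium (IFT-B, with the kinesin motor) and back (IFT-A, with the dynein motor), and the BBSome, a coat assembled with the help of chaperonin-like BBS proteins, carries membrane proteins out. The transition zone, which in photoreceptors is the connecting cilium, holds NPHP, tectonic and RPGR proteins and gates what passes. Many CEP proteins belong to the centriole itself: its duplication, its capping and the appendages that dock it to the membrane.

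RNA-seq covered 5 populations with 3 libraries each. All BCs together (pan-BC) were sorted once from Otx2-GFP+/- mice aged 44 to 47 days, in which GFP sits in the *Otx2* locus. ON-BCs, the BCs depolarized by light, were sorted once from Otx2-GFP+/-; Grm6-YFP+/+ mice aged 42 to 48 days, whose YFP transgene is driven by the *Grm6* promoter, and OFF-BCs were put through a double sort, from mice of that genotype and of the same ages. Rods came from Nrl-eGFP mice and photoreceptors named blue cones from Nrl-eGFP;NrlKO mice, both aged 56 days and both taken by the authors from an earlier study of their laboratory. The blue cones are therefore a *Nrl* knockout population standing in for native S-cones, and cell class cannot be told apart from study and age wherever BCs are compared with photoreceptors. ATAC-seq of open chromatin had 2 libraries each for pan-BC, ON-BC and OFF-BC, all from Otx2-GFP+/-; Grm6-YFP+/+ mice aged 42 to 46 days, and 2 each for rods, blue cones and green cones, the last from Opn1mw-GFP mice, all aged 56 days. The study calls the libraries of 1 population biological replicates, and the BC libraries came from mice of several ages, but the labels name no animals, so p-values are stated over libraries.

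The RNA-seq libraries held 12329548 to 26266746 counted reads (median 15569580), and the ATAC-seq libraries 4176776 to 12345845 (median 6648830). The targeted gene matched the labels: *Nrl*, the rod-determining transcription factor, stood at 14181 ± 2574 normalized counts in rods and 636 ± 141 for blue cones (mean ± SD, n = 3). Of 12 bipolar markers, 11 were higher in pan-BC than in rods. RNA of photoreceptor markers was nonetheless present in the BC libraries. The mean summed level of 8 rod markers was 2.29% of its mean in rods for pan-BC, 1.54% for ON-BC and 0.724% for OFF-BC (0.444% to 1.19% in its single libraries), with no marker at 0 in any of them. A sum of 7 cone markers, leaving out *Gnb3*, which ON-BCs also express, ranged from 41557 to 67561 normalized counts in pan-BC and from 4629.9 to 5253 for ON-BC. In OFF-BC it was 24496, 22618 and 92698, so OFF-BC replicate 3 stood apart. Markers of other cell types differed between the populations as well. The summed level of 8 Muller glia markers was 7385 to 8817 normalized counts in pan-BC, 1769 to 2873 for rods and 13602 to 17032 for blue cones. For 9 amacrine and ganglion markers the sums were 716 to 778, 2162 to 2479.9 and 1507 to 1802, in the same order. Most single markers of that list did not follow its sum. By the test given below, 4 of the 7 tested, *Gad1*, *Gad2*, *Nefl* and *Pax6*, were instead more abundant in pan-BC, against rods and against blue cones alike. Only *Slc6a9* was called in the direction of the sum against rods, and *Slc6a9* and *Pou4f1* against blue cones. The sum of 10 cell division genes was 407 to 427 for rods and 78.7 to 121 for pan-BC, and that of 4 horizontal cell markers was at most 119 in any library. Their part in the results was not tested. Values below are normalized counts, that is reads divided by 1 size factor per library, log2 fold changes are pan-BC minus rods, pan-BC minus blue cones, rods minus blue cones or ON-BC minus OFF-BC, and a gene is called when its log2 fold change exceeds 1 in limma's treat test at an adjusted p below 0.05 over all 14024 genes tested. In bulk RNA, fewer expressing cells and less RNA per cell cannot be told apart.

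The 65 genes together were far more abundant in photoreceptors than in BCs. Their summed level was 41828 to 42918 normalized counts in pan-BC, 41436 to 43251 for ON-BC and 40442 to 43177 for OFF-BC, against 87766 to 99291 for blue cones and 128238 to 142825 for rods. The 3 BC populations overlapped in this sum, and blue cones and rods each stood apart from every other population. Between pan-BC and rods, 31 of the 64 genes tested (48.4%) were higher in rods and 5 (7.81%) in pan-BC, while over all genes the shares were 15.8% and 27.8%. Between pan-BC and blue cones, 22 (34.4%) were higher in blue cones and 6 (9.38%) in pan-BC, against 13.7% and 22.7% of all genes. The median log2 difference of these genes was -1.28 against rods and -0.97 against blue cones, where the medians of all genes were 0.21 and 0.16. Scaling to library totals moved the median of all genes by 0.34 and 0.28, and with either scaling the median of these genes lay -1.49 and -1.13 from that of all genes. Scaled to library totals, 26 of the 64 were called higher in rods and 5 lower, and 17 higher in blue cones and 8 lower. Over all 14024 genes that scaling called 1578 higher in rods and 4497 in pan-BC. Against blue cones it called 1462 of them higher in blue cones and 3699 in pan-BC. Among all genes called between pan-BC and rods, those higher in pan-BC went from 3901 of 6112 to 4497 of 6075. When tested against no difference at all, 54 of the 64 differed from rods and 53 from blue cones, among 79.5% and 76.3% of all genes. Both comparisons use the same pan-BC libraries.

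**Figure D1:**
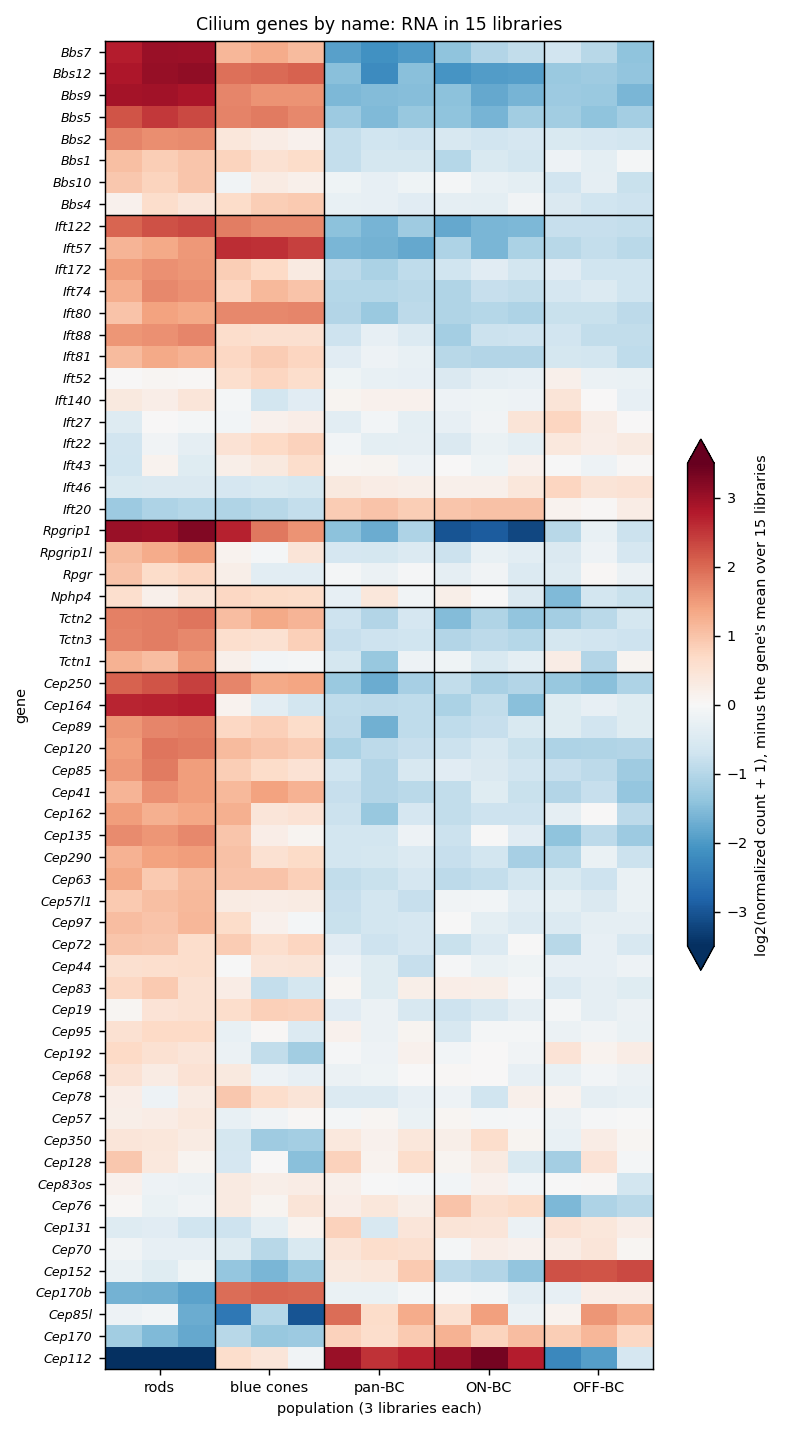
Normalized counts of 61 of the 64 tested cilium genes in each of the 15 RNA-seq libraries, drawn as log2(normalized count + 1) minus the gene's mean over the libraries (color), with genes in rows grouped by name and libraries in columns by population. Most rows are highest in the 3 rod libraries, and a few, among them Ift20, Cep170 and Cep112, are highest in BC libraries.

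Which cilium gene was most abundant also differed by population. Per kilobase of exon, *Ift20* led in all 3 BC populations, at 4649.8 normalized counts per kb in pan-BC, 4939 for ON-BC and 2721 for OFF-BC, with *Bbs4* next in each. In rods the order was *Bbs7* (5986), *Rpgrip1* (4551), *Bbs5* (4282) and *Bbs4* (3703), and in blue cones *Bbs4* (4913), *Bbs5* (2865), *Rpgrip1* (2333) and *Bbs7* (1799). The ranking rests on means of 3 libraries and on 1 exon length per gene, and neighbors in it were not tested against each other.

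Of the 6 name groups, the Bbs genes had the widest median gap between pan-BC and rods. Of the 8 Bbs genes, 6 were higher in rods than in pan-BC (75%, against 15.8% of all genes) and none was lower (against 27.8% of all genes). Their median log2 difference was -3.06. *Bbs7*, a BBSome subunit, was read at 545, 469 and 520 normalized counts in the 3 pan-BC libraries, 772, 997 and 1120.4 for ON-BC, 1276, 1039 and 761 for OFF-BC, 4607, 4995 and 4423 for blue cones and 13799, 16708 and 16144 for rods. Every rod library was above every blue cone library, and every blue cone library was above every BC library. The pan-BC to rod difference was 30.4-fold (log2 fold change -4.92 ± 0.16 SE, adjusted p = 1.11e-12), and the rod to blue cone difference 3.33-fold (log2 fold change 1.73 ± 0.16 SE, adjusted p = 0.00172). *Bbs12*, one of the chaperonin-like proteins that assemble the BBSome, had 156, 92.8 and 157 normalized counts in pan-BC, 3058, 3591 and 3706 for rods and 1643, 1689 and 1793 for blue cones (log2 fold change -4.70 ± 0.17 SE, adjusted p = 2.84e-12 against rods). The BBSome subunits *Bbs5* and *Bbs9* had means of 494 and 305 for pan-BC and of 6445 and 6572 for rods, log2 differences of -3.70 and -4.43 (adjusted p = 2.12e-12 and 8.78e-14 by limma). All 4 were also higher in blue cones than in pan-BC, with log2 differences of -3.13 to -3.69.

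The other subunits spread over a wide range. *Bbs2* stood at 724, 804 and 788 for pan-BC, 4287, 4034 and 4112 for rods and 1714, 1544 and 1451 for blue cones, higher in rods than in both (log2 fold change -2.42 ± 0.09 SE, adjusted p = 2.33e-10 against pan-BC, and log2 fold change 1.40 ± 0.09 SE, adjusted p = 0.00176 against blue cones). *Bbs1* was lower, at 185, 219 and 217 for pan-BC and 692, 611 and 656 for rods (log2 fold change -1.66 ± 0.15 SE, adjusted p = 5.55e-04). Its difference from blue cones (log2 fold change -1.35 ± 0.15 SE, adjusted p = 0.0423) kept its call in 7 of 15 alternatives. It lost it with DESeq2, a pseudocount of 8, the replicate block and library totals (log2 fold change -1.06, adjusted p = 0.697 by limma, the highest of the 15), without pan-BC replicate 1 or 3 (log2 fold change -1.27 and -1.38) and without blue cone replicate 1 or 3 (-1.29 and -1.34). *Bbs4* was the exception in this family, being abundant everywhere: 6013, 5839 and 5470.4 for pan-BC, 5765, 5587 and 6591 for ON-BC, 5079, 4403 and 4333 for OFF-BC, 7980.2, 10892 and 9556 for rods and 11227, 13036 and 13451 for blue cones. Its log2 difference between pan-BC and rods was -0.70 (95% interval -0.97 to -0.44), and between pan-BC and blue cones -1.12 (-1.39 to -0.85), and neither exceeded 1 in the test. The chaperonin-like *Bbs10* had 293 for pan-BC and 627 for rods (log2 fold change -1.09 ± 0.15 SE, adjusted p = 0.513).

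**Figure D2:**
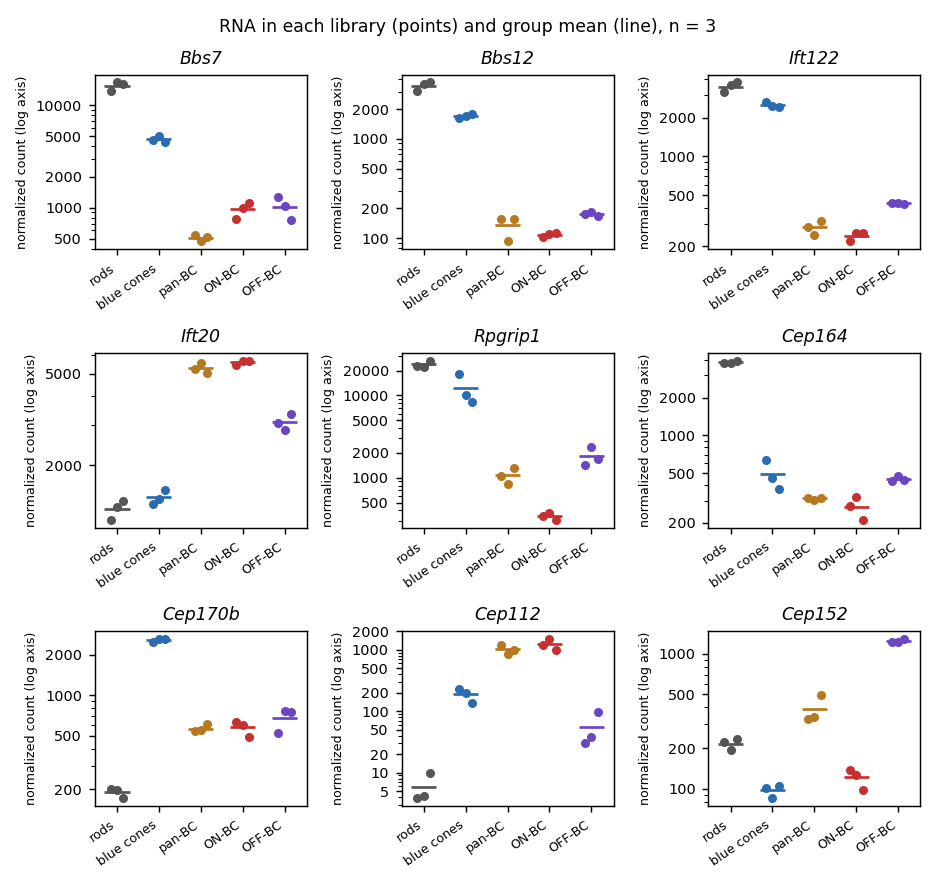
Normalized counts (log axis) of 9 cilium genes in each RNA-seq library of the 5 populations, 1 point per library with a line at the population mean. Bbs7, Bbs12, Ift122, Rpgrip1 and Cep164 are highest in the 3 rod libraries, Ift20 is highest in BCs, Cep170b in blue cones, Cep152 in OFF-BC, and Cep112 falls from BCs other than OFF-BC to near 0 in rods.

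The IFT genes divided. Of 14, 7 were higher in rods than in pan-BC (50%, against 15.8% of all genes), 1 was lower (7.14%, against 27.8%) and 6 were not called. Against blue cones the counts were 5 (35.7%, against 13.7%), 1 (7.14%, against 22.7%) and 8. Within IFT-A, *Ift122* rose from 281, 245 and 318 for pan-BC to 3158, 3563 and 3759.6 for rods and 2654, 2455 and 2439.5 for blue cones (log2 fold change -3.63 ± 0.11 SE, adjusted p = 1.53e-12 against rods, and log2 fold change -3.16 ± 0.11 SE, adjusted p = 6.15e-11 against blue cones). Of the same complex, *Ift140* and *Ift43* were not called. *Ift140* had 817 ± 20.8 for pan-BC and 939 ± 62.1 for rods (log2 fold change -0.20 ± 0.16 SE, adjusted p = 1), and *Ift43* had 1014 ± 107 and 824 ± 242 (log2 fold change 0.33 ± 0.17 SE, adjusted p = 1).

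In IFT-B, the anterograde complex, 6 of 11 genes were higher in rods (54.5%, against 15.8% of all genes). *Ift172* had 247, 216 and 249.6 for pan-BC and 1282, 1423 and 1361 for rods (log2 fold change -2.51 ± 0.14 SE, adjusted p = 4.90e-08), and *Ift88*, whose loss shortens cilia, had 436, 598 and 522 and 2105, 2182 and 2360.2 (log2 fold change -2.10 ± 0.14 SE, adjusted p = 1.09e-06). *Ift81*, which binds tubulin together with *Ift74*, had 1105, 1292 and 1219.9 for pan-BC and 3146, 3689.8 and 3375 for rods (log2 fold change -1.496 ± 0.10 SE, adjusted p = 2.62e-04), and this call was lost when scaled to library totals (-1.15). *Ift57* was the lowest of the called IFT genes in BCs and highest in blue cones, with 61.7, 58.5 and 53.8 for pan-BC, 433, 471 and 544 for rods and 1122, 1110.2 and 992 for blue cones (log2 fold change -4.19 ± 0.17 SE, adjusted p = 7.49e-11 for pan-BC against blue cones). The rod to blue cone difference of *Ift57* did not pass the test (log2 fold change -1.16 ± 0.17 SE, adjusted p = 0.721).

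*Ift20*, an IFT-B subunit that also sits at the Golgi, ran the other way. It had 5225, 5579 and 5042 normalized counts in pan-BC, 5467, 5689.9 and 5676 for ON-BC, 3059, 2858 and 3356 for OFF-BC, 1163, 1323 and 1406 for rods and 1356, 1436 and 1568 for blue cones. Every BC library was above every photoreceptor library. The difference was 4.07-fold against rods (log2 fold change 2.03 ± 0.10 SE, adjusted p = 5.00e-08) and 3.63-fold against blue cones (log2 fold change 1.86 ± 0.10 SE, adjusted p = 7.36e-07). Of the remaining IFT-B genes, *Ift27*, a small GTPase of the complex, had 762 ± 81.5 for pan-BC and 828 ± 134 for rods, and *Ift52* had 1239 ± 63.3 and 1497 ± 24.7. *Ift46* had 2959.96 ± 148 and 1707 ± 19.0 (log2 fold change 0.79 ± 0.10 SE, adjusted p = 1). None of these was called, and the signs of *Ift140*, *Ift27* and *Ift52* turn with library totals as the scale.

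*Rpgrip1*, which anchors the GTPase regulator RPGR in the connecting cilium, was the most unequal gene of the transition zone. Its promoter is shown here because both its RNA and its accessibility differed between populations. The window runs from 250 bases before to 50 after the RefSeq start (GRCm38, chr14:52110653-52110952, plus strand), and capitals mark the only copy of TAATCC, a sequence bound by OTX2 and CRX, which lies here on the opposite strand.
Rpgrip1 promoter: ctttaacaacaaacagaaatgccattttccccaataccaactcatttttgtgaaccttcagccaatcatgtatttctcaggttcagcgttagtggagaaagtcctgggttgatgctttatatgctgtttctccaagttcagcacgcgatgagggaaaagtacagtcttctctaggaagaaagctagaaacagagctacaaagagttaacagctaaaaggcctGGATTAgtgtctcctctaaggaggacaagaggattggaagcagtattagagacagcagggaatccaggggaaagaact
*Rpgrip1* was read at 22875, 21918 and 26376 normalized counts in rods, 18155, 10063 and 8268 for blue cones, 1040.2, 841 and 1329.99 for pan-BC, 1423, 2356 and 1666 for OFF-BC and 344, 375 and 309.9 for ON-BC. Rods were 22.2-fold above pan-BC (log2 fold change -4.49 ± 0.24 SE, adjusted p = 6.87e-10), blue cones 11.4-fold above pan-BC (log2 fold change -3.45 ± 0.24 SE, adjusted p = 1.19e-07), and rods and blue cones did not overlap but were not called apart (log2 fold change 1.04 ± 0.24 SE, adjusted p = 1). Blue cone replicate 1 was nearer to the lowest rod library than to the other blue cone libraries. Pan-BC held 4.51% of the rod level of *Rpgrip1*, where it held 2.29% of the rod level of the rod markers. It also held 3.38% of the blue cone level of the 7 cone markers other than *Gnb3*. Blue cones held 51.3% of the rod level of *Rpgrip1*. The part of photoreceptor RNA in the BC values was not tested. Exons of *Supt16* on the other strand cover 17.7% of the *Rpgrip1* exons, and the strand setting of the counting is not given in the sources used here, so reads of the pair cannot be separated.

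*Rpgr* and *Rpgrip1l* differed less. *Rpgr* had 890.3, 811 and 916 for pan-BC, 1859.95, 1469 and 1579.9 for rods and 1091, 731 and 721 for blue cones, which gave log2 fold change -0.90 ± 0.16 SE, adjusted p = 1 against rods and a log2 difference of 0.07 (-0.28 to 0.41) against blue cones. *Rpgrip1l*, a transition zone protein of most ciliated cells, was higher in rods (505, 569 and 642) than in pan-BC (155, 151 and 165, log2 fold change -1.85 ± 0.18 SE, adjusted p = 3.82e-04). All 3 tectonic genes were higher in rods than in pan-BC, as were 15.8% of all genes. *Tctn3* had 268, 285 and 289 for pan-BC and 1564, 1641 and 1514 for rods (log2 fold change -2.48 ± 0.11 SE, adjusted p = 1.83e-09), and *Tctn2* had 149, 120.04 and 163 and 840.2, 851 and 895 (log2 fold change -2.59 ± 0.18 SE, adjusted p = 3.62e-07). *Tctn1* was low throughout, at 28.7, 17.1 and 39.2 for pan-BC and 106, 95.3 and 129 for rods (log2 fold change -1.98 ± 0.35 SE, adjusted p = 0.0167). The *Tctn1* call was lost without pan-BC replicate 2 (-1.67), without rod replicate 3 (-1.86) and with library totals (-1.64), and 32.9% of its exons overlap *Hvcn1* on the other strand. *Tctn2* and *Tctn3* were also higher in blue cones than in pan-BC (-1.98 and -1.40, adjusted p = 1.18e-04 and 0.00359 by limma), and with library totals the *Tctn3* call was lost (log2 fold change -1.12, adjusted p = 0.339 by limma).

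*Nphp4*, a nephrocystin of the transition zone, had 241, 386 and 270.4 for pan-BC, 445, 335 and 402 for rods and 487, 472 and 463 for blue cones and was not called (log2 fold change -0.42 ± 0.24 SE, adjusted p = 1 against rods).

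Among the 33 Cep genes tested, 12 were higher in rods than in pan-BC (36.4%, against 15.8% of all genes) and 3 lower (9.09%, against 27.8%). The other 18 were not called, and the median log2 difference of the 33 was -0.74. The 12 included both appendage and centriole genes. *Cep164*, a distal appendage protein needed to dock the centriole, had 318, 307 and 316 for pan-BC, 3746, 3786 and 3938 for rods and 633, 454 and 376 for blue cones. Rods stood 12.2-fold above pan-BC (log2 fold change -3.60 ± 0.17 SE, adjusted p = 2.67e-10) and 7.84-fold above blue cones (log2 fold change 3.002 ± 0.17 SE, adjusted p = 3.07e-08), whereas pan-BC and blue cones were not called apart (log2 fold change -0.60 ± 0.17 SE, adjusted p = 1). *Cep89*, another distal appendage protein, had 347 for pan-BC, 2409 for rods and 1253 for blue cones, and was called against both. *Cep250*, which links the centriole pair, had 281, 209 and 309.6 for pan-BC and 2911, 3200.1 and 3608 for rods (log2 fold change -3.61 ± 0.16 SE, adjusted p = 1.24e-10). Of the other called genes, *Cep85*, *Cep120*, *Cep41*, *Cep162*, *Cep135*, *Cep63*, *Cep57l1* and *Cep97* had log2 differences from -2.66 to -1.75, among them the centriole elongation factor *Cep120* at 691 for pan-BC and 4386 for rods and the capping protein *Cep97* at 279.7 and 941, whose call was lost with library totals (-1.40). *Cep290*, which connects microtubules to the membrane in the transition zone, had 1382, 1420.3 and 1564 for pan-BC, 4984, 5721 and 5957 for rods and 4384, 3124 and 3444 for blue cones (log2 fold change -1.93 ± 0.18 SE, adjusted p = 1.39e-04 against rods, and log2 fold change -1.31 ± 0.18 SE, adjusted p = 0.121 against blue cones). An antisense gene overlaps 8.63% of its exons.

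Against blue cones, 8 Cep genes were lower in pan-BC (24.2%, against 13.7% of all genes) and 4 were higher (12.1%, against 22.7%). The Cep genes lower in rods were *Cep170*, *Cep170b* and *Cep112*. *Cep170*, a subdistal appendage protein, had 1277, 1111 and 1372 for pan-BC, 315, 251 and 209.6 for rods and 376, 292 and 299.8 for blue cones (log2 fold change 2.29 ± 0.17 SE, adjusted p = 1.92e-06 against rods, and log2 fold change 1.96 ± 0.17 SE, adjusted p = 7.09e-05 against blue cones). Its paralog *Cep170b* separated the 2 photoreceptor populations instead, with 2489, 2618 and 2596 for blue cones, 539, 547 and 608 for pan-BC and 202, 197 and 173 for rods. Pan-BC was above rods (log2 fold change 1.56 ± 0.14 SE, adjusted p = 0.00141) and below blue cones (log2 fold change -2.18 ± 0.14 SE, adjusted p = 1.10e-06), and blue cones were 13.5-fold above rods (log2 fold change -3.75 ± 0.14 SE, adjusted p = 4.86e-11). *Cep85l* was low everywhere, at 54.2, 21.2 and 34.3 for pan-BC, 11.6, 12.3 and 3.24 for rods and 1.504, 6.07 and 0.740 for blue cones, and was called higher in pan-BC against blue cones (log2 fold change 3.48 ± 0.63 SE, adjusted p = 0.00199).

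*Cep112* had the largest difference of any of these genes. Its promoter is shown because its accessibility also differed. The window again runs from 250 bases before to 50 after a RefSeq start (GRCm38, chr11:108425016-108425315, plus strand). Capitals mark a match to a form of the X-box, the motif of RFX transcription factors. That form was searched as GTNNCC, a gap of 2 bases, then GGNNAC. Sites whose second part begins otherwise, such as gttaccatagcaac near the left end of this window, were not marked or counted.
Cep112 promoter: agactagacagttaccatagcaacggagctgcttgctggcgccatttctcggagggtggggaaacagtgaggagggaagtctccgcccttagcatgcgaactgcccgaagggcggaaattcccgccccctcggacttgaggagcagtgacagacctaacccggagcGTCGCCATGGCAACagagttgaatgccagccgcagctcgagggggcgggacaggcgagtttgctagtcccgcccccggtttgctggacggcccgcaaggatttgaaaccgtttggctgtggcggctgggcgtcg
*Cep112* was read at 1218, 867 and 987 normalized counts in pan-BC, 1218, 1507 and 992 for ON-BC, 30.2, 38.4 and 98.2 for OFF-BC, 229, 199 and 137 for blue cones and 3.88, 4.10 and 9.73 for rods. Pan-BC and ON-BC overlapped, blue cones lay between them and OFF-BC, and every rod library was below every other library. The log2 difference of pan-BC was 7.30 ± 0.38 (SE) from rods and 2.46 ± 0.38 from blue cones (adjusted p = 1.17e-10 and 0.00251 by limma), and that of rods was -4.84 from blue cones (adjusted p = 2.53e-07). On the log2 scale with 1 added, the fold of a gene this low in rods is understated. RefSeq lists 3 starts for *Cep112*, which counts per gene cannot separate.

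**Figure D3:**
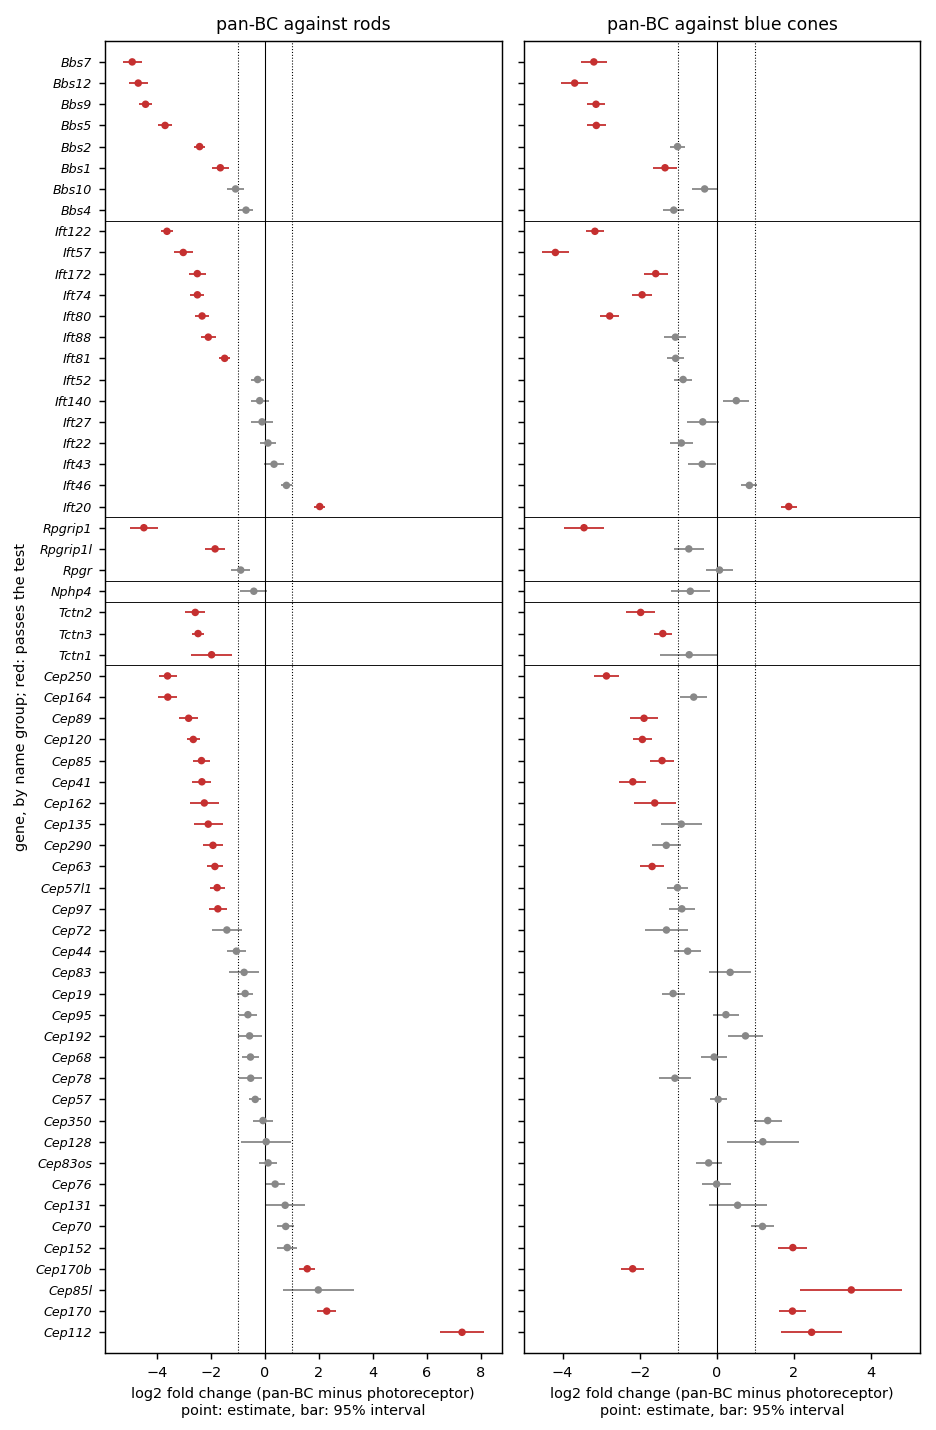
Log2 fold changes with their 95% intervals for 61 of the 64 tested cilium genes for pan-BC against rods (left panel) and against blue cones (right panel), with called genes in red and dotted lines at a log2 fold change of 1 in either direction. In both panels most red genes lie to the left (higher in photoreceptors), and Cep170b changes side between the panels.

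Rods and blue cones were called apart in 5 of the 64 genes. *Bbs2*, *Bbs7* and *Cep164* (4.69% of the 64 genes, against 4.63% of all genes) were higher in rods, and *Cep112* and *Cep170b* (3.12%, against 11.3%) were higher in blue cones. Small differences were common: 48 of the 64 genes differed when tested against no change, where 57.5% of all genes did. The median log2 difference was 0.57, against -0.00 over all genes. Rods were higher by 0.97 for *Rpgr*, 1.12 for *Rpgrip1l*, 1.08 for *Tctn3* and 1.03 for *Ift88* on the log2 scale, none of them called. The 14 IFT genes gave no call with limma, edgeR or DESeq2, and 0 of them had an unadjusted p below 0.05 in limma's test against a difference of 1, although 11 differed from no change.

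ON-BC and OFF-BC were called apart in 4 of the 64 genes. *Cep112* and *Cep76* were higher in ON-BC (3.12% of the 64 genes, where 2.95% of all genes were), and *Cep152* and *Rpgrip1* were higher in OFF-BC (3.12%, where 3.6% of all genes were). *Cep152*, the scaffold that recruits the duplication kinase PLK4 to the centriole, had 1227, 1212 and 1286 for OFF-BC, 138, 127 and 98.5 for ON-BC, 329.7, 342 and 494 for pan-BC, 220.2, 194 and 235 for rods and 102, 85.7 and 104 for blue cones. Every OFF-BC library was above every other library of the series (log2 fold change -3.36 ± 0.18 SE, adjusted p = 6.58e-08). *Cep63*, which binds *Cep152* at the centriole, had 282, 297 and 339 for ON-BC and 365, 321 and 457 for OFF-BC (log2 fold change -0.31 ± 0.14 SE, adjusted p = 1). *Cep112* was 22.3-fold higher in ON-BC (log2 fold change 4.62 ± 0.38 SE, adjusted p = 2.39e-06), with OFF-BC replicate 3 the highest of the OFF-BC libraries. *Cep76*, which limits centriole duplication, had 551, 401 and 434 for ON-BC and 91.6, 129 and 141 for OFF-BC (log2 fold change 1.94 ± 0.18 SE, adjusted p = 9.56e-04), with 320.2, 358 and 317 for pan-BC.

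*Rpgrip1* was 5.29-fold higher in OFF-BC than in ON-BC (log2 fold change -2.37 ± 0.24 SE, adjusted p = 4.89e-04). The marker sums moved unevenly beside it. Of 8 rod markers, 6 were higher in ON-BC and none in OFF-BC, with summed levels of 31628 to 37147 for ON-BC and 9899 to 26486 for OFF-BC, the opposite direction to *Rpgrip1*. Of 8 cone markers, 7 were higher in OFF-BC. OFF-BC replicate 3, whose sum of cone markers was 92698, held the middle *Rpgrip1* value of the 3. Without that library the log2 differences were -2.42 for *Rpgrip1*, -3.33 for *Cep152*, 2.07 for *Cep76* and 5.12 for *Cep112*, and all 4 stayed called. As a share of its rod level, *Rpgrip1* was 7.65% for OFF-BC and 1.45% for ON-BC, where the rod markers were 0.724% and 1.54%, all as ratios of means. The 7 cone markers other than *Gnb3* were 2.835% and 0.3001% of their blue cone level, with OFF-BC replicate 3 included. That is the same direction as *Rpgrip1*. The part of photoreceptor RNA in this difference was not tested. OFF-BCs had a double sort and ON-BCs a single sort, which cannot be told apart from the cell class.

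Tested against no change, 19 of the 64 genes differed between ON-BC and OFF-BC, where 27% of all genes did. *Ift20* was among them, with log2 0.86 ± 0.10 (SE) higher in ON-BC, as was *Nphp4* (0.88), and *Cep164* (-0.76) was higher in OFF-BC. The Bbs, Ift, Nphp and Tctn genes gave no call here with limma, edgeR or DESeq2, and 0 of them had an unadjusted p below 0.05 against a difference of 1. Pan-BC holds both classes, and its RNA-seq mice are labelled without the Grm6-YFP transgene that the ON-BC and OFF-BC mice carried. In 2 of the 64 genes, *Cep70* and *Ift81*, all 3 pan-BC libraries were above all 6 ON-BC and OFF-BC libraries (3.12%, against 3.71% of all genes). In 7, *Bbs2*, *Bbs7*, *Cep57l1*, *Cep89*, *Cep97*, *Ift172* and *Ift57*, all pan-BC libraries were below them (10.9%, against 3.17% of all genes, no test). For *Bbs7* the highest pan-BC library had 545 normalized counts and the lowest of the other BC libraries 761.

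Partners of these genes that go by other names, listed with earlier results of these data known, were counted in the same way. Of 82 other cilium genes, 80 were tested, and 35 were higher in rods than in pan-BC (43.8%, against 15.8% of all genes) and 6 lower (7.5%, against 27.8%), while 32 were higher in blue cones than in pan-BC (40%, against 13.7%) and 7 lower (8.75%, against 22.7%). Of 12 other tectonic and MKS transition zone genes, 7 were higher in rods and none lower, led by *Tmem67* (log2 fold change -2.87 ± 0.15 SE, adjusted p = 3.94e-09). Of the 3 IFT-A genes with other names, *Wdr19* and *Wdr35* were higher in rods (log2 fold change -2.32 ± 0.13 SE, adjusted p = 8.49e-08, and log2 fold change -2.44 ± 0.14 SE, adjusted p = 7.04e-08). In IFT-B, *Ttc26* (log2 fold change -3.88 ± 0.30 SE, adjusted p = 1.58e-07), *Ttc30b* and *Ttc30a1* were higher in rods, and *Hspb11*, which is IFT25, was lower (log2 fold change 1.61 ± 0.12 SE, adjusted p = 1.96e-04). *Arl6*, the small GTPase that recruits the BBSome to membranes, and the subunit *Ttc8* were higher in rods (-2.65 and -1.96, adjusted p = 2.50e-09 and 4.37e-06 by limma). Of 6 such BBSome genes, 4 were higher in rods and none in pan-BC. The 4 other NPHP and RPGR transition zone genes leaned toward pan-BC instead. Among these 4, 1 was called for pan-BC against rods (25%, near the 27.8% of all genes) and none for rods. Against blue cones, 2 were called for pan-BC (50%, against 22.7%) and none for blue cones. Their median log2 differences were 0.73 and 1.17, and no single one was below 0. *Anks6*, which belongs to the inversin compartment of the cilium, was lower in rods (log2 fold change 3.75 ± 0.52 SE, adjusted p = 1.16e-04), and *Invs*, of the same compartment, was called lower in blue cones (log2 fold change 1.59 ± 0.24 SE, adjusted p = 0.033) and not in rods (log2 fold change 0.46 ± 0.24 SE, adjusted p = 1), a difference between those comparisons that was not tested.

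*Rp1*, which shapes the outer segment axoneme, had 654, 455 and 664 for pan-BC and 65419, 70526 and 63222 for rods (log2 fold change -6.83 ± 0.44 SE, adjusted p = 2.06e-09), and *Tulp1*, a photoreceptor trafficking protein, had 975, 675 and 1077 and 38509.7, 38304 and 39181 (log2 fold change -5.44 ± 0.49 SE, adjusted p = 2.70e-07). Its relative *Tulp3*, which brings receptors into cilia with IFT-A, was higher in pan-BC (log2 fold change 3.49 ± 0.35 SE, adjusted p = 5.08e-06). *Arl13b*, a GTPase of the ciliary membrane, was higher in rods (log2 fold change -3.84 ± 0.17 SE, adjusted p = 8.96e-11). Of the 13 cargo genes, 5 were higher in rods (38.5%, against 15.8% of all genes) and 3 lower (23.1%, near the 27.8% of all genes). Of the 10 axoneme genes, 7 were higher in rods (70%) and 1 lower (10%). Of 11 motor subunits, *Dynlrb1*, a dynein light chain shared with cytoplasmic dynein, was higher in pan-BC (log2 fold change 2.20 ± 0.14 SE, adjusted p = 8.31e-07), and *Dync2li1*, *Kif3b*, *Wdr34* and *Wdr60* were higher in rods. Those shares were 9.09% and 36.4%, against 27.8% and 15.8% of all genes. Against blue cones, 2 motor genes (18.2%) were called in each direction, near the 22.7% of all genes higher in pan-BC and 13.7% in blue cones. In that comparison 7 cargo genes (53.8%) and 6 axoneme genes (60%) were higher in blue cones and none in pan-BC. Of 16 centriole assembly genes tested, 3 were higher in rods (*Ccp110*, *Cdk5rap2* and *Sass6*), a share of 18.8% that is near the 15.8% of all genes, and none in pan-BC. The transcription factor *Rfx2*, whose family drives cilium genes, had 10.6, 5.04 and 9.79 for pan-BC, 314, 283 and 378 for rods and 339, 341 and 308 for blue cones (log2 fold change -5.15 ± 0.58 SE, adjusted p = 4.50e-06 against rods). It was the only one of 7 such factors called against rods (14.3%, near the 15.8% of all genes). Of 10 cell division genes, 5 were tested, and *Aurka*, *Ccna2* and *Cenpf* were higher in rods (60%, against 15.8% of all genes), where the sum of the 10 was also highest. None of the 5 was higher in blue cones than in pan-BC, and 1 was lower (20%, near the 22.7% of all genes). Between ON-BC and OFF-BC, 1 of the 80 genes was called, *Fam161a*, with 441 for ON-BC and 1135 for OFF-BC (log2 fold change -1.36 ± 0.11 SE, adjusted p = 0.037). That is 1.25% higher in OFF-BC, against 3.6% of all genes, and none higher in ON-BC, against 2.95%.

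Open chromatin was then read at the starts of the 65 genes, a measurement made in other libraries and not used in choosing them. Every gene had at least 1 ATAC-seq region, 200 bp wide, within a window that begins 1000 bp before a RefSeq start and ends 100 bp after it, 84 regions in all, and 24 genes shared a region with another gene. Between pan-BC and rods, 19 regions (22.6%, against 13.8% of all promoter regions) were more accessible in rods and 2 (2.38%, against 17.2%) in pan-BC. With edgeR on the recovered reads these became 30 and 2, and with library totals 10 and 4. Over all 16481 promoter regions, 2270 were higher in rods and 2833 in pan-BC, which became 4278 and 2948 with edgeR. With library totals they became 1530 and 3028. Leaving out pan-BC replicate 2, or rod replicate 1, left fewer calls, in fits with 1 library in that population. The share higher in rods was then near that of all promoter regions. Of the 21 calls, 9 held under all 7 alternatives of tool, pseudocount, scaling and left-out library. Between pan-BC and blue cones 3 regions (3.57%) were called in each direction, against 3.76% of all promoter regions for blue cones and 11.5% for pan-BC. That split became 9 for blue cones and 3 for pan-BC with edgeR, and 4 and 1 with library totals. Over all promoter regions, 619 for blue cones and 1898 for pan-BC became 1974 and 1949 with edgeR. With library totals they became 891 and 1623. Fewer of the 84 regions were called without pan-BC replicate 2 or without blue cone replicate 1, each of which leaves 1 library in its population. Rods and blue cones differed in 3 regions, 2 higher in rods (2.38%, against 1.04%) and 1 lower (1.19%, against 5.56%). ON-BC and OFF-BC differed in 0 of 84 with limma (all promoter regions, 0.37% higher in ON-BC and 0.904% higher in OFF-BC), with 1 region at an unadjusted p below 0.05 and 1 called by edgeR, in both cases that at the start of *Rpgrip1*.

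The largest differences among the 84 regions were at *Rpgrip1*. Its region at the start, centered 6 bp upstream (GRCm38, chr14:52110797-52110996), had normalized counts of 177 and 139 in the 2 rod libraries, 88.4 and 70.4 for green cones, 59.6 and 38.3 for blue cones, 24.2 and 39.9 for OFF-BC, 2.99 and 10.2 for ON-BC and 7.201 and 5.70 for pan-BC. Rods were above pan-BC (log2 fold change -4.41 ± 0.46 SE, adjusted p = 4.47e-06), as were blue cones (log2 fold change -2.72 ± 0.46 SE, adjusted p = 0.00357), and both OFF-BC libraries were above both ON-BC libraries, a difference that limma did not call (log2 fold change -2.26 ± 0.46 SE, adjusted p = 0.0758). A second region 344 bp upstream was also highest in rods, with 116 and 113 for rods, 3.89 and 8.67 for blue cones and 9.60 and 3.42 for pan-BC (log2 fold change -4.08 ± 0.68 SE, adjusted p = 4.79e-04 against pan-BC, and log2 fold change 4.07 ± 0.68 SE, adjusted p = 0.00303 against blue cones). Green cones, with 51.5 and 28.2, lay between. At the start, as in the RNA, rods were above blue cones and OFF-BC above ON-BC, but pan-BC, which lay between OFF-BC and ON-BC in RNA, was at the level of ON-BC in accessibility. Of these differences between rods and blue cones and between OFF-BC and ON-BC, in RNA and at the start, limma called only that of OFF-BC and ON-BC in RNA.

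**Figure D4:**
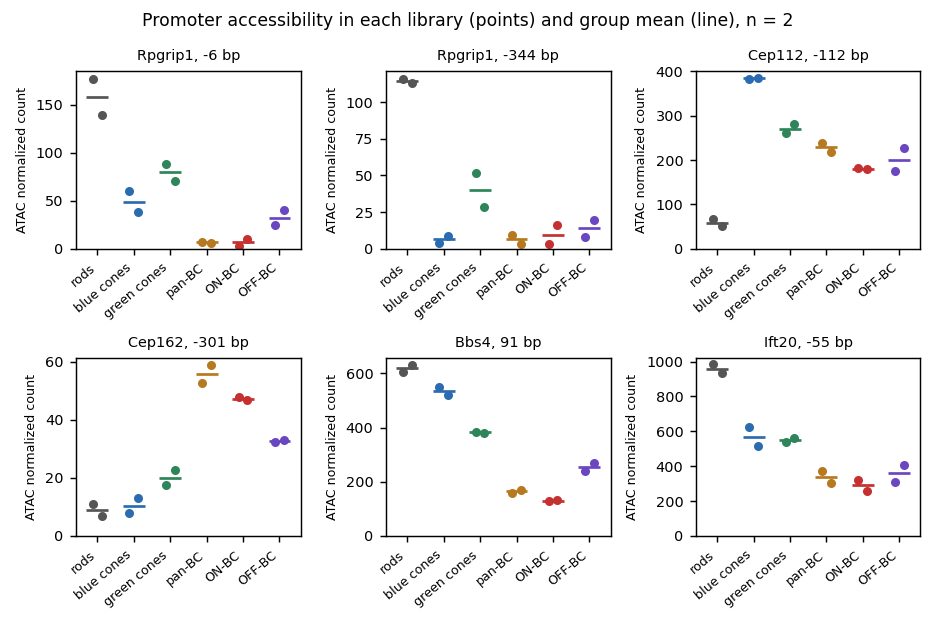
Normalized ATAC-seq counts (linear axis from 0) in each library at 6 promoter regions of 5 cilium genes, 1 point per library and a line at the mean of 2 for rods, blue cones, green cones, pan-BC, ON-BC and OFF-BC, with the distance in bp of the region from the gene's start in each title. Both Rpgrip1 regions are highest in the rod libraries, the Cep112 region is lowest there, and the Ift20 region is highest in rods although its RNA is not.

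At *Cep112*, the region centered 112 bp upstream had 238 and 218 for pan-BC, 182 and 179 for ON-BC, 175 and 227 for OFF-BC, 66.2 and 51.5 for rods, 383 and 385 for blue cones and 260.5 and 280.2 for green cones. Rods were the lowest population (log2 fold change 1.95 ± 0.19 SE, adjusted p = 2.07e-04 for pan-BC against rods, and log2 fold change -2.70 ± 0.19 SE, adjusted p = 3.53e-06 for rods against blue cones), as in the RNA. The ON-BC to OFF-BC difference in RNA was not seen at this region, where the log2 difference was -0.14 and the libraries overlapped. *Cep162*, an axoneme-binding protein of the centriole, had a region 301 bp upstream with 52.8 and 58.7 for pan-BC and 10.9 and 6.78 for rods (log2 fold change 2.56 ± 0.42 SE, adjusted p = 0.00236), open in the direction opposite to its RNA, which was 109.98 for pan-BC and 516 for rods (-2.25). The larger *Cep162* region, centered 15 bp upstream, had 171 and 180 for pan-BC and 191 and 127 for rods and was not called. At *Bbs4* the region just downstream of the start had 157 and 171 for pan-BC, 607 and 632 for rods and 549 and 520.3 for blue cones (log2 fold change -1.91 ± 0.15 SE, adjusted p = 3.41e-05 against rods, and log2 fold change -1.70 ± 0.15 SE, adjusted p = 7.02e-04 against blue cones), although the RNA was not called against either.

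Other regions more accessible in rods under those 7 alternatives lay at *Tctn2* (-1.91), *Ift140* (-1.77), *Ift27* (-1.56) and *Bbs2* (-1.44). Those of *Cep131*, *Cep95*, *Ift52*, *Ift43*, *Ift81*, *Ift20*, *Nphp4*, *Tctn1*, *Cep63*, *Cep85* and *Cep164* (2 regions) each lost the call in at least 1 alternative, with main values from -1.80 to -1.35. The regions of *Ift140*, *Cep95* and *Nphp4* were shared with *Cramp1l*, *Ddx5* and *Kcnab2*. The *Ift20* region, shared with *Tnfaip1*, was more accessible in rods, with 984 and 936 against 372 and 301 for pan-BC (log2 fold change -1.52 ± 0.17 SE, adjusted p = 0.00746), while its RNA was 4.07-fold higher in pan-BC. The *Ift20* region call was lost without pan-BC replicate 2, without rod replicate 1 and with library totals (log2 differences of -1.36, -1.48 and -1.36). *Cep55* had an open region at its start in all populations (765 for pan-BC, 937 for rods and 348 for blue cones) although its RNA was between 0 and 10.2 normalized counts. In pan-BC against blue cones, *Cep44* had 2 regions more accessible in pan-BC (1.85 at 590 bp, a region shared with *Fbxo8*, and 1.61 at 988 bp upstream), both lost without pan-BC replicate 2, without blue cone replicate 2 and with library totals, and *Cep63* 1 region less accessible there (-1.53), lost without pan-BC replicate 2 and without blue cone replicate 1 (-1.43 and -1.40).

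Across the genes, RNA and promoter accessibility were only loosely related. Taking the region nearest the start for each of 64 genes, the log2 differences between pan-BC and rods had a Pearson r of 0.30 and a Spearman rho of 0.03 across genes, which are not independent and which share libraries and size factors. Of the 17 genes with a region more accessible in rods, 8 (47.1%) had RNA higher in rods, 1 (*Ift20*) higher in pan-BC and 8 not called. Of the other 47, 23 (48.9%) had RNA higher in rods and 4 higher in pan-BC. *Bbs7* and *Bbs12*, with the largest RNA differences toward rods of the 64 genes, were in this second group. *Bbs7* had 296 and 370.04 for pan-BC and 682 and 718 for rods at its start (log2 fold change -1.08 ± 0.18 SE, adjusted p = 0.484), and *Bbs12* had 354 and 543 and 497 and 442 (log2 fold change -0.10 ± 0.20 SE, adjusted p = 1). The *Bbs12* region is also a promoter region of *Cetn4*, and accessibility there cannot be assigned to either gene.

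**Figure D5:**
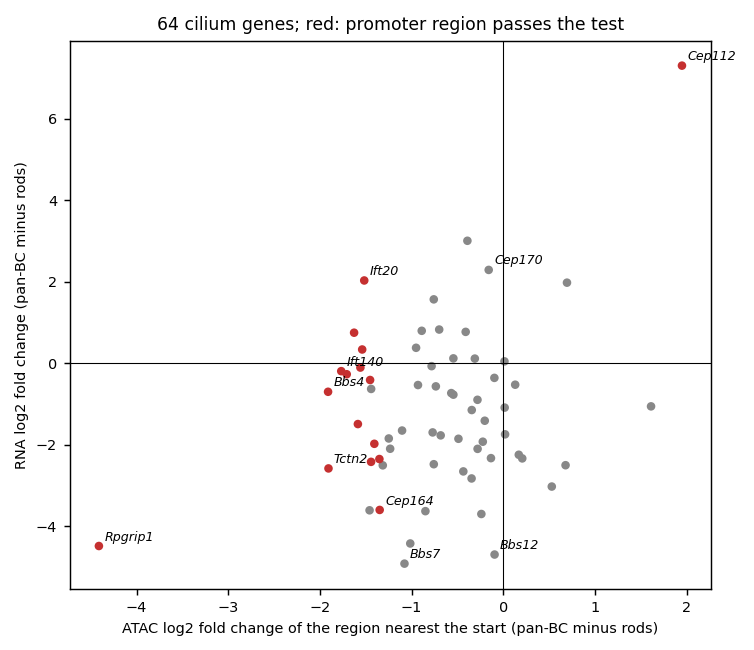
For each of 64 cilium genes, the log2 fold change of RNA (vertical axis) against that of ATAC-seq accessibility at the region nearest the gene's start (horizontal axis), pan-BC minus rods, with genes whose nearest region passed the test in red and some genes named. Rpgrip1 lies at the lower left, low in both, Cep112 at the upper right, Ift20 at the upper left, and Bbs7 and Bbs12 at the bottom, lowest in RNA with gray points.

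What these promoters share in sequence was read from RefSeq windows (GRCm38.p6) of 300 bases, 250 before to 50 after a start, present for 55 of the 65 genes. The X-box form given above was found, on either strand, in 13 of the 55 genes (23.6%), against 583 of 27025 genes in all (2.16%) and 9 of 71 other cilium genes (12.7%). That form was settled after other forms had been looked at, and *Cep83* and *Cep83os* hold the same site. Those upstream of the start are shown for 5 genes of different roles, with the X-box in capitals, so that the paired half-sites can be compared.
Bbs7, chr3:36613484-36613523, minus strand: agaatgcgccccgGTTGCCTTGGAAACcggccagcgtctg
Ift57, chr16:49699194-49699233, plus strand: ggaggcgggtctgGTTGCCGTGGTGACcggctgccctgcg
Ift22, chr5:136908074-136908113, plus strand: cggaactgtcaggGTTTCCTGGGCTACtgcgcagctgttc
Cep44, chr8:56550656-56550695, minus strand: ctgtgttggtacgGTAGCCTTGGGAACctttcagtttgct
Tctn2, chr5:124598674-124598713, plus strand: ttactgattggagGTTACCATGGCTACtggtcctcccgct
Of the 13 sites, 8 lay inside an ATAC-seq region of the gene (*Bbs1*, *Bbs4*, *Cep112*, *Cep19*, *Ift22*, *Ift57*, *Tctn1* and *Tctn2*). RNA was higher in rods for 5 of the 13 genes with this form (38.5%) and for 21 of the 41 tested genes with a window without it (51.2%). *Cep112*, higher in pan-BC, has it. Other forms of the X-box were not counted. TAATCC was present in 4 of 55 genes (7.27%, against 8.14% of all genes), namely *Bbs1*, *Cep72*, *Cep85l* and *Rpgrip1*, and only the copy at *Rpgrip1* lay inside an ATAC-seq region of its gene. A match describes the letters in the window and not a bound site.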

How the data were processed

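RNA-seq and ATAC-seq of sorted mouse retinal cells were analysed from the tables the authors deposited. Per the study's methods, retinas were dissociated with papain and sorted, RNA was extracted with Trizol and amplified with the SMARTer Ultra Low kit, and single-end reads were aligned with STAR and counted per gene with HTSeq (GRCm38 with RefSeq genes). ATAC-seq reads were aligned with Bowtie2 and filtered with SAMtools and Picard to nucleosome-free fragments, and peaks came from MACS2. The submitters' processing notes give STAR 2.7.0d, HTSeq 1.9, Bowtie2 2.2.5, SAMtools 1.3, Picard 2.19.0 and MACS2 2.1.1. The strand setting of the counting is not given in the sources used here.

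The deposited values are a normalized signal: the authors divided each library's counts by 1 size factor. Whole reads could be recovered for 230384 of 230384 RNA values above 0 and 1212862 of 1212862 ATAC values (100.0%, within 0.01 of a whole number). No column without a sample was used (0 such columns). The peak lists of 2 double-sorted green cone libraries, which are not in the region table, were not used here. The study's filter on genes carried over from rods or cones was not applied.

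Genes and regions with low counts were filtered as edgeR does, leaving 14024 of 24062 genes and 108448 of 110715 regions. Differences were tested with limma's treat (limma 3.58.1, R 4.3.3) with a trended prior on log2(normalized count + 1), over all 15 or 12 libraries, against a log2 fold change of 1, with Benjamini-Hochberg adjustment over all features and a threshold of 0.05. Standard errors and 95% intervals come from that fit, and fold changes of low genes are understated on that scale. The same comparisons were run with edgeR 4.0.16 and DESeq2 1.42.0 on the recovered reads, which called 6728 and 5855 genes between pan-BC and rods where limma called 6112, 5777 and 4852 between pan-BC and blue cones (limma 5092), 2739 and 2147 between rods and blue cones (limma 2231), and for ON-BC against OFF-BC 1226 and 981 (limma 919). Alternatives were other pseudocounts, other scalings, no filter, a test against no change, only the 2 groups, a replicate block, and leaving out each library. The fits were checked on simulated data.

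Replicate libraries differed by more than sampling noise (chi-square per gene 6.75 to 64.3, Pearson r of log values 0.972 to 0.985), so each counts once. Promoter regions were taken between 1000 bp before and 100 bp after a RefSeq start. Exon lengths and overlaps, starts and promoter windows are from RefSeq on GRCm38, and all 65 genes matched. Intervals cover the spread between libraries, and reads without molecular identifiers are not independent molecules.

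The genes and all gene lists were chosen with earlier results of these data known. Named with values are the called genes with the largest differences, up to 8 per direction and comparison, 15 genes always named, and genes with a called promoter region. Others named were chosen after their values were seen. A few genes are counted but not reported by name here.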

Additional observations from a re-analysis of the deposited data

How the results depend on the processing

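The number of cilium genes called in RNA stayed within 1.5 times its main value (36, 28, 5 and 4 for pan-BC against rods, pan-BC against blue cones, rods against blue cones, and ON-BC against OFF-BC) under every alternative except the test against no change, which called 54, 53, 48 and 19. Of the 36 calls, 31 were kept under all 15 other alternatives, and the exceptions included *Bbs1*, *Cep97*, *Ift81* and *Tctn1*. Of the 28, 23 were kept, all but *Bbs1*, *Cep162*, *Cep85*, *Ift172* and *Tctn3*, and the 5 and the 4 were all kept. The accessibility counts were less steady with 2 libraries per population. The 21 regions of pan-BC against rods became 32 with edgeR, 58 against no change and 10 to 21 when 1 library was left out. The 6 of pan-BC against blue cones became 12, 54 and 2 to 8. The 3 of rods against blue cones became 46 against no change. The 0 of ON-BC against OFF-BC became 1 with edgeR, 1 with library totals, 14 against no change and 0 to 1 when 1 library was left out. The causes of these moves were not tested.

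A replicate block was fitted as an alternative. ON-BC and OFF-BC libraries with the same number also share an age in the labels, which do not say that they came from the same mice, and they did not all deviate together (r = -0.08, 0.22 and -0.06). The block gave 36, 27, 5 and 4 calls, and the 4 between ON-BC and OFF-BC were kept.

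Over 181 single values and their alternatives, 2500 of 2656 kept their direction and their side of the threshold, 86 lost the call, 44 gained it and 26 changed sign, all of them log2 differences of genes not called. In pan-BC against rods these were *Ift140* (0.15 with library totals), *Ift27* (0.24 with library totals) and *Ift52* (0.075 with library totals). In pan-BC against blue cones these were *Rpgr* (-0.032 with edgeR, -0.0056 with TMM scaling, -0.035 to 0.26 with 1 library left out). In rods against blue cones these were *Cep131* (-0.41 to 0.011 with 1 library left out). In ON-BC against OFF-BC these were *Bbs2* (0.0012 with edgeR, 0.00071 with TMM scaling, -0.053 to 0.0065 with 1 library left out), *Cep131* (-0.26 to 0.057 with 1 library left out), *Cep290* (-0.38 to 0.014 with 1 library left out), *Cep95* (0.0088 with edgeR, -0.12 to 0.13 with 1 library left out), *Ift172* (-0.076 to 0.11 with 1 library left out), *Ift43* (-0.012 to 0.13 with 1 library left out), *Ift88* (-0.18 to 0.056 with 1 library left out), *Rpgr* (-0.23 to 0.022 with 1 library left out), *Rpgrip1l* (-0.14 to 0.11 with 1 library left out) and *Tctn1* (-0.52 to 0.12 with 1 library left out).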
